A study of Mus musculus with 22 samples.

Results

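The genes described here were 10 members of the Eph and ephrin families, taken by symbol from the deposited feature lists of 32285 genes. They comprised 6 receptors (Epha1, Epha2, Epha4, Epha5, Epha7 and Ephb2) and 4 ligands (Efna1, Efna5, Efnb1 and Efnb2). The 2 families hold 22 genes in these lists, so 12 other members were kept as a comparison list. The choice of the 10 was made with earlier results of these data known. All 10 symbols were found, each with 1 row per library. They were followed in presomitic mesoderm (PSM), somites and neural cells of gastruloids, balls of mouse embryonic stem cells that elongate in culture and form trunk tissues. All gastruloids came from 1 wild-type line, E14Tg2A, seeded at 300 cells per well, aggregated for 48 h and then treated with 3 µM CHIR99021, an activator of Wnt signalling. There was no mutant, no untreated arm and no embryo among the groups used here, so every comparison is between cell types or between gastruloid days.

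Single gastruloids were tagged with lipid-anchored barcodes (MULTI-seq), pooled and run as droplet single-cell RNA-seq. In the first experiment 24 gastruloids of day 5 were used. The second gave 11 gastruloids of day 4 and 12 of day 4.5. The third held 24 that were 3 days old and 16 at each of the ages 3.5, 4, 4.5 and 5 days. In the third experiment days 3.5 and 4 were pooled in the same 4 lanes, and days 4.5 and 5 in the same 3 lanes. Day 3 had lanes of its own. A difference between days of separate lane sets, such as day 4 and day 5, cannot be told apart from one between pools. The 2 lanes of pool C (days 4 and 4.5, second experiment) and the 2 untagged 10X runs (day 3 and day 4) carried no gastruloid assignment and are given only as whole lanes. The 4 libraries of days 3 and 3.5 of the second experiment were not analysed here. The individual gastruloid was the replicate, and a cell type of a gastruloid entered with at least 15 cells. Levels are in CPM, the unique molecular identifiers (UMIs) of a gene over all UMIs of that cell type in that gastruloid, scaled to 1000000.

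Eph receptors are receptor tyrosine kinases and ephrins are their membrane-bound ligands, so signalling needs contact between neighbouring cells and can run into both of them. A-class ephrins are held in the membrane by a lipid anchor and mainly bind EphA receptors. B-class ephrins span the membrane and mainly bind EphB receptors, with EphA4 as a receptor for both classes. In the vertebrate trunk EphA4 and ephrin-B2 are known from the border that forms between a new somite and the PSM behind it, and in the nervous system the families guide axons and sort cells.

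The lanes held 77674 cells that the authors kept, with a median of 8287 to 38443 UMIs per cell per lane. Of these, 53730 cells were assigned to 1 of 136 gastruloids, and 1 gastruloid with 9 cells was left out, so 135 were used. The share assigned to a single gastruloid was 45.1% to 51.1% in the day 3 lanes and 76.4% to 99.2% in the other tagged lanes. The first experiment was the shallowest, with 1293296 to 8064678 UMIs per gastruloid. Of 76935 cell barcodes, 732 (0.951%) occurred in more than 1 lane. Cell type names are the authors' own. On day 5 of the third experiment the anterior PSM markers (Mesp1, Mesp2, Ripply2, Lfng and Dll3) summed to 697 to 1444 CPM in Late Anterior PSM and 270 to 428 CPM in Late Posterior PSM. Somite markers summed to 1403 to 1963 CPM in Mature Somites, and all 8 of them reached a mean of 5 CPM there. Early Spinal Cord carried 4 of 9 neural markers at that level and Late Spinal Cord 7 of 9. The patterning gene Pax6 was at 3.61 ± 2.62 CPM (SD, n = 16) in Early Spinal Cord, whose summed neuromesodermal progenitor (NMP) markers were at 486 to 667 CPM.

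The results turn mostly on 3 members, Epha4, Efnb2 and Epha5, so their promoters are shown to give the letters next to their start sites. Each is the 250 bases upstream of the RefSeq start site in GRCm38.p6, on the minus strand, written 5′ to 3′. All 10 members had a RefSeq promoter, 12 windows in all. The windows are chr1:77515089-77515338 for Epha4, chr8:8661243-8661492 for Efnb2 and chr5:84417383-84417632 for Epha5. Capitals mark matches to 3 short motifs searched on both strands: the E-box CANNTG, which basic helix-loop-helix factors bind, the T-box core GGTGTG, and TGGGAA, the core bound by the Notch effector Rbpj.
Epha4: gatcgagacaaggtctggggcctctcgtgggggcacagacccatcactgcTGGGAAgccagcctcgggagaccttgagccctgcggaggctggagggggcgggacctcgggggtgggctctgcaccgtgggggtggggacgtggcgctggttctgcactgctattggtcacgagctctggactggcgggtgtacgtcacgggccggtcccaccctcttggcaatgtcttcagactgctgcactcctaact
Efnb2: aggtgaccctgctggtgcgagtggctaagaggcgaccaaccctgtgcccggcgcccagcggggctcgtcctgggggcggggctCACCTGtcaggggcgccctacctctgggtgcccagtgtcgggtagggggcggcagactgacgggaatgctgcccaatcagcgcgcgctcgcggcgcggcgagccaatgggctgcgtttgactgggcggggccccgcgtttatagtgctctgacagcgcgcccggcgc
Epha5: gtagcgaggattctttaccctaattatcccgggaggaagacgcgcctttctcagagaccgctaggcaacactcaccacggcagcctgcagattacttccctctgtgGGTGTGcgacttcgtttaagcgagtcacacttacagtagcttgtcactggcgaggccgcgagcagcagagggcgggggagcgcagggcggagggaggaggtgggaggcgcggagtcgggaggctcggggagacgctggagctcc
The Epha4 window held 1 TGGGAA match, the Efnb2 window 1 E-box and the Epha5 window 1 T-box core. Over 32851 RefSeq windows of the same length, 66.2% held an E-box, 16.3% the T-box core and 21.6% TGGGAA, so each of these matches is of a common kind. The motifs do not overlap in these windows, and a match is a description of letters only.

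Epha4 (ENSMUSG00000026235, chromosome 1, 77367185 to 77515088 of mm10, minus strand) encodes the receptor with the widest ligand range of the family. It was highest in anterior PSM. On day 5 of the third experiment its level was 43.8, 59.3 and 75.7 CPM (lowest, median, highest) over 16 gastruloids in Late Posterior PSM. In Late Anterior PSM it was 165, 234 and 274 CPM over 13 gastruloids, and no gastruloid overlapped the posterior range. In Somites it was back at 35.3, 86.7 and 106 CPM over 11 gastruloids, and in Mature Somites at 30.9, 50.3 and 64.0 CPM over 16. The first experiment, with other gastruloids of the same day, gave 51.1, 82.1 and 109 CPM in Late Posterior PSM (n = 21). Its Late Anterior PSM stood at 208, 318 and 496 CPM (n = 16), again without overlap. Somites of that experiment averaged 132.5 ± 62.8 CPM (SD, n = 9), from 49.7 to 236 CPM, and so reached into the Late Anterior PSM range. Among the named types of day 5, Late Anterior PSM was first and its mean ± SD did not reach that of the type below it in either experiment.

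Efnb2 (ENSMUSG00000001300, chromosome 8, 8617434 to 8661242, minus strand), the transmembrane ligand ephrin-B2, was also low in posterior and high in anterior PSM, and it was high in Somites as well. On day 5 of the third experiment it was at 13.3, 26.0 and 41.5 CPM in Late Posterior PSM and at 137, 161 and 224 CPM in Late Anterior PSM. In Somites it was at 172, 229 and 262 CPM, and in Mature Somites at 58.9, 78.0 and 166 CPM. The posterior and anterior PSM ranges did not overlap, while those of Late Anterior PSM and Somites did. In the first experiment the medians over the same 4 types were 19.1, 178, 205 and 73.1 CPM. Over these 4 types the highest median of Efnb2 was in Somites and that of Epha4 in Late Anterior PSM, in both experiments.

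**Figure D1:**
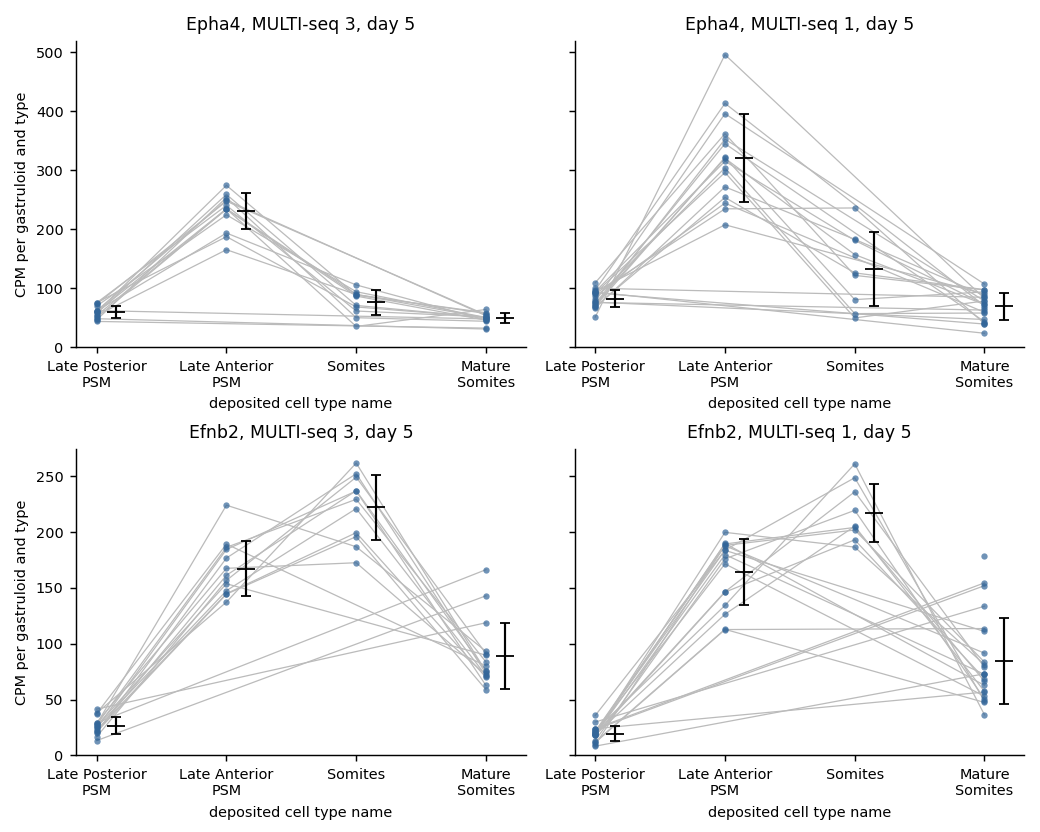
Epha4 and Efnb2 levels (CPM, linear axes from 0) in Late Posterior PSM, Late Anterior PSM, Somites and Mature Somites on day 5 of the third and of the first MULTI-seq experiment. Each point is 1 gastruloid, grey lines join the types of a gastruloid, and bars give the mean ± SD. Epha4 has its maximum in Late Anterior PSM (165 to 274 CPM in the third experiment) and Efnb2 is high in both Late Anterior PSM and Somites.

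These contrasts were read within the gastruloids that held both types, which were 5 to 16 per group in the PSM and somite comparisons, out of 24 in the first experiment and 16 at each of these days of the third. Differences are given as the mean ± SD over gastruloids of the difference in log2(CPM + 5). A gene was counted as different where that mean was at least 1 in size and every gastruloid had the same sign. It is a rule of size with no test, because the cell types were named from the same counts. The 5 CPM added before taking logs weighs on low genes: with 20 CPM all 13 counted differences of Epha4, 13 of 15 of Efnb2 and 13 of 16 of Epha5 still met the rule, but 3 of 11 of Epha7, 1 of 4 of Epha2, 1 of 3 of Efnb1 and none of Epha1 (9), Efna1 (5) or Ephb2 (1). In Late Anterior against Late Posterior PSM Epha4 was higher by 1.91 ± 0.47 (16 of 16 gastruloids, first experiment, day 5). In the third experiment it was higher by 1.52 ± 0.34 on day 4 (9 of 9), 1.60 ± 0.40 on day 4.5 (7 of 7) and 1.83 ± 0.31 on day 5 (13 of 13). Efnb2 was higher by 2.85 ± 0.36, 3.34 ± 0.44, 3.23 ± 0.54 and 2.48 ± 0.32 in the same 4 groups, again in every gastruloid. Among all genes with a mean of at least 5 CPM in either type, 2.06%, 2.59%, 2.42% and 2.34% met the rule in these groups.

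Members on the low side of the same contrast were Efna1, which encodes a lipid-anchored ligand, and Epha1. Efna1 differed by -1.58 ± 0.62, -1.32 ± 0.58, -1.77 ± 0.31 and -1.36 ± 0.56, and was lower in Late Anterior PSM in every gastruloid of the 4 groups. On day 4, however, 1 of the 9 gastruloids stood at -0.000527, and with TMM-scaled library sizes that group no longer met the rule. Epha1 differed by -1.46 ± 0.50 in the first experiment, and by -1.18 and -1.06 on days 4 and 4.5 of the third. On day 5 of the third experiment its difference of -0.86 did not meet the rule. Epha5 met it on day 4 alone, at -1.12. With 20 in place of 5 added to the CPM these 3 low genes no longer met the rule in any of the 4 groups, with Efna1 at -0.72, -0.52, -0.72 and -0.57, whereas Epha4 and Efnb2 still did. The 4 groups therefore held 2, 2, 2 and 2 members counted higher, the same Epha4 and Efnb2 each time, and 2, 3, 2 and 1 counted lower. In the earlier pair of cell types on day 4, Early Anterior against Early Posterior PSM (14 gastruloids), Epha4 was higher by 1.12 ± 0.24 and Efnb2 by 1.66 ± 0.32, where 1.39% of genes met the rule.

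From Late Anterior PSM to Somites Epha4 and Efnb2 parted. Epha4 differed by -1.70 ± 0.51, -1.47 ± 0.61 and -1.55 ± 0.54 on days 4, 4.5 and 5 of the third experiment and was lower in every gastruloid. In the first experiment the difference was -1.28 ± 0.83, lower in 8 of 9 gastruloids, so it missed the rule. Efnb2 differed by 0.39, 0.08, 0.31 and 0.41 (first experiment, then days 4, 4.5 and 5 of the third) and met the rule in none of the 4 groups. The shares of all genes that met it were 1.46%, 2.22%, 2.69% and 1.94%. Between Mature Somites and Late Anterior PSM Epha4 differed by -2.0, -1.89, -1.92 and -2.04 and was lower in every gastruloid of all 4 groups, where 3.52%, 3.71%, 4.45% and 4.27% of genes were counted.

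The lower level of Efnb2 came in the next type, Mature Somites. Against Somites it differed by -1.73 ± 0.50 in the first experiment, and by -0.93 ± 0.13, -1.29 ± 0.17 and -1.50 ± 0.25 on days 4, 4.5 and 5 of the third. It was lower in every gastruloid, and only the day 4 value was under the size rule. Epha7 (ENSMUSG00000028289, chromosome 4, 28813131 to 28967499, plus strand), an EphA receptor known from neural tissue, went the other way. It was higher in Mature Somites than in Somites by 2.24 ± 0.57 in the first experiment and by 2.17 ± 0.32 on day 5 of the third, in every gastruloid. On days 4 and 4.5 its differences of 0.63 and 0.89 did not meet the rule. Against Late Anterior PSM it was also higher, by 2.08 ± 0.58 in the first experiment and 2.0 ± 0.50 on day 5 of the third, but by 0.46 (6 of 7 gastruloids) on day 4 and 0.95 on day 4.5, which missed the rule. With 20 in place of 5 added to the CPM, the day 5 difference of the third experiment missed it too. The shares of genes counted between Mature Somites and Somites were 3.27% (first experiment) and 1.6%, 3.67% and 3.85% (days 4, 4.5 and 5).

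The level of Epha7 in Mature Somites was also higher at later days. In the third experiment it was 9.24, 11.0 and 16.0 CPM on day 4 (7 gastruloids), 5.69, 13.8 and 25.7 CPM on day 4.5 (12), and 19.3, 24.6 and 36.7 CPM on day 5 (16). The day 4 and day 5 ranges did not overlap, but these days were run in separate lanes, so day and pool cannot be told apart. Day 5 was tested against day 4.5 with edgeR's quasi-likelihood test and Benjamini-Hochberg adjustment over all genes, used for every day contrast below. These p-values measure the spread between gastruloids of 1 cell line. Epha7 rose by 0.77 on the log2 scale (SE 0.12, adjusted p = 1.61e-05), and all 16 day 5 gastruloids were above the day 4.5 median. The first experiment gave 14.7, 27.8 and 59.8 CPM on day 5 (n = 23).

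Epha2 (ENSMUSG00000006445, chromosome 4, 141301240 to 141329384, plus strand), a receptor for A-class ephrins that is common in epithelia, fell in the same cells. In Mature Somites it was at 18.5, 21.9 and 32.0 CPM on day 4, 1.90, 7.32 and 12.2 CPM on day 4.5 and 0.866, 1.81 and 4.18 CPM on day 5. Day 4 stood clear of both later days, but it was run in other lanes than these, so day and pool cannot be told apart. From day 4.5 to day 5 it fell by 1.75 on the log2 scale (SE 0.21, adjusted p = 1.29e-07), and all 16 day 5 gastruloids were below the day 4.5 median. In the second experiment Mature Somites were at 19.9 ± 4.5 CPM (SD, n = 4) on day 4 and 17.2 ± 6.4 CPM (n = 7) on day 4.5, so the low day 4.5 level of the third experiment was not seen there. The first experiment gave 0, 4.82 and 14.8 CPM on day 5 (n = 23), below every day 4 value of the third but reaching above its highest day 4.5 value. On day 4 of the third experiment Epha2 in Mature Somites was above Somites by 1.23 ± 0.42 and above Late Anterior PSM by 2.28 ± 0.25, in every gastruloid. Against Somites it missed the rule in the other groups, at 0.72 in the first experiment (higher in 7 of 9), 0.81 on day 4.5 and 0.22 on day 5. Against Late Anterior PSM it met the rule on day 4.5 (1.07) but not in the first experiment (0.58) or on day 5 of the third (0.37). Prdm1, listed here as a germ cell marker, moved with Epha2 in the third experiment, at 28.0, 4.66 and 1.21 CPM on days 4, 4.5 and 5. The second germ cell marker, Dppa3, averaged 0, 0.0343 and 0.0106 CPM. Their part in the result was not tested. Epha2 and Epha7 were the 2 called among 7 members tested in this contrast, where 14.5% of all genes were called. Without lane A or lane C of the pool Epha2 fell under the filter on low counts and was not tested.

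**Figure D2:**
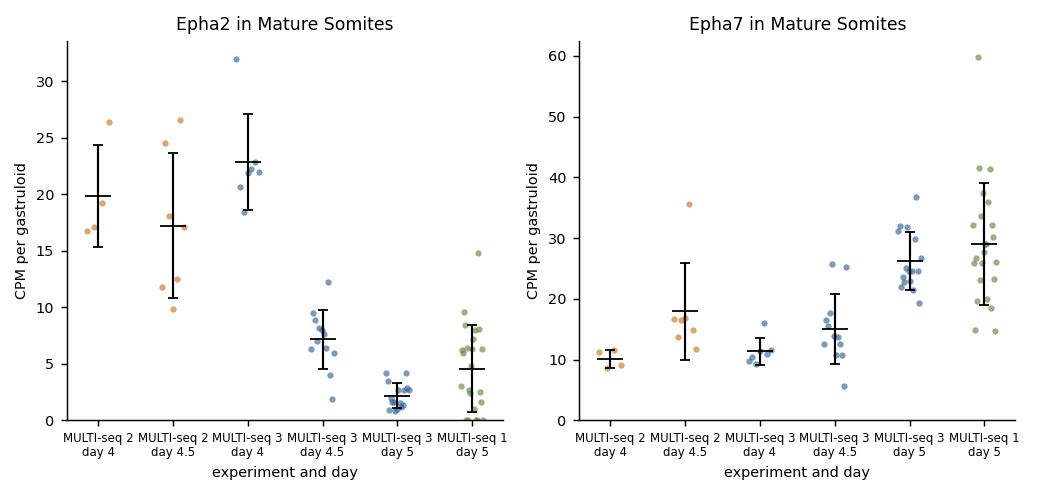
Epha2 and Epha7 levels (CPM, linear axes from 0) in Mature Somites by experiment and day. Each point is 1 gastruloid and bars give the mean ± SD. In the third experiment Epha2 is at 18.5 to 32.0 CPM on day 4 and at 0.866 to 4.18 CPM on day 5, while Epha7 on day 5 lies above all its day 4 values.

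Epha5 (ENSMUSG00000029245, chromosome 5, 84054761 to 84417382, minus strand), an EphA receptor known mainly from neurons, was high in progenitor-like neural types and low in the later one. On day 5 of the third experiment it was at 88.5, 146 and 313 CPM in Early Spinal Cord (16 gastruloids) and at 56.9, 108 and 151 CPM in NMPs (16), the bipotent progenitors of spinal cord and PSM. In Late Spinal Cord it was at 7.99, 13.4 and 30.1 CPM (8), below every value of the other two. In Mature Somites it averaged 1.44 ± 0.78 CPM (n = 16). The ranges of Early Spinal Cord and NMPs overlapped across gastruloids, so their order is not beyond this spread, which does not pair the types within a gastruloid. Early Spinal Cord also had the higher mean in the first experiment (105 ± 29 against 73.3 ± 26.5 CPM). The same held on day 4.5 of the third (138 ± 39.9 against 109 ± 21.1 CPM). Within gastruloids the Epha5 difference between these types did not meet the size rule in these groups.

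Within gastruloids, Late minus Early Spinal Cord was -2.27 ± 0.79 for Epha5 in the first experiment (12 gastruloids) and -1.35 ± 0.32 on day 4.5 of the second (5). In the third it was -2.28 ± 0.28 on day 4.5 (7) and -2.67 ± 0.48 on day 5 (8). Every gastruloid of the 4 groups had the lower value in Late Spinal Cord. Epha7 was the member on the other side, at 0.84 ± 1.12 in the first experiment, which missed the rule, and at 1.05 ± 0.29, 1.16 ± 0.42 and 1.09 ± 0.35 in the other 3 groups, which met it. With 20 in place of 5 added to the CPM, Epha7 met it in none of these groups. Efna5, a lipid-anchored ligand, lay between 0.63 and 0.81 and met it in none. The shares of genes counted were small here, at 0.601%, 0.983%, 1.3% and 1.3%. In levels, Epha7 in Late Spinal Cord of day 5 was at 5.88, 12.5 and 17.6 CPM and in Early Spinal Cord at 3.66 ± 1.70 CPM.

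Epha5 was also high in an earlier neural type. On day 3.5 Epha5 averaged 114 ± 32.5 CPM in Caudal Neurectoderm (n = 11) and 36.2 ± 9.0 CPM in Early Neurectoderm (n = 7). Within 7 gastruloids Caudal was above Early Neurectoderm by 1.41 ± 0.50, one of the 0.437% of genes counted. Against Early Posterior PSM of the same day (6 gastruloids) Caudal Neurectoderm differed by 2.47 ± 0.59 for Epha5 and 1.77 ± 0.42 for Efnb1. It differed by -1.95 ± 0.23 for Epha4, -1.51 ± 0.38 for Epha7 and -1.47 ± 0.32 for Efna1. These 5 members had the same sign in all 6 gastruloids, where 6.32% of genes met the rule. With 20 in place of 5 added to the CPM, Epha7 and Efna1 no longer met it.

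**Figure D3:**
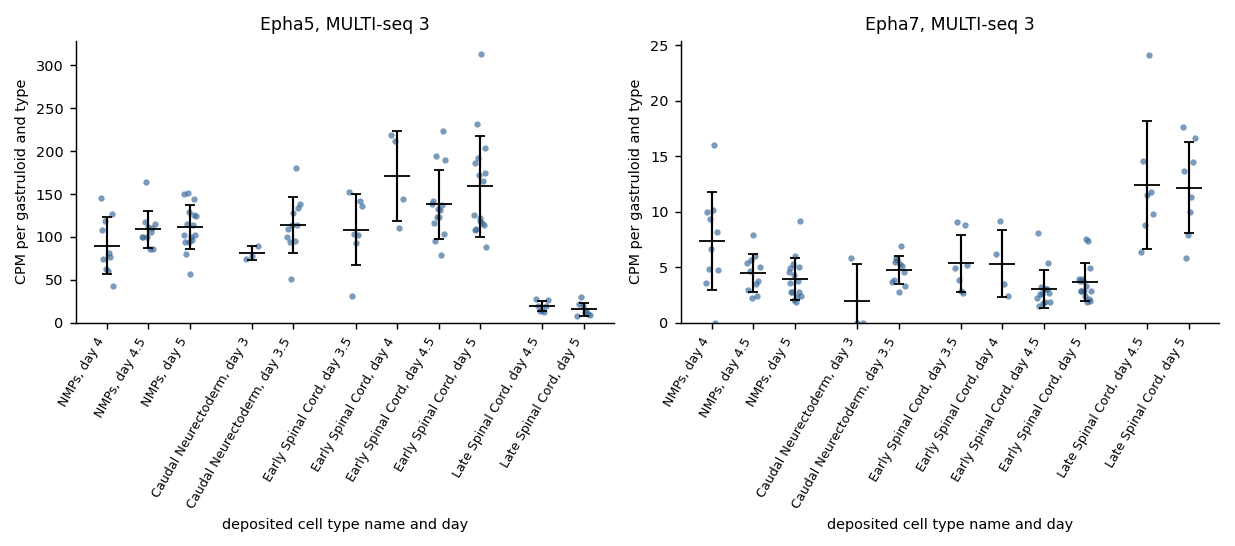
Epha5 and Epha7 levels (CPM, linear axes from 0) in NMPs, Caudal Neurectoderm, Early Spinal Cord and Late Spinal Cord of the third experiment, by day. Each point is 1 gastruloid and bars give the mean ± SD. On day 5 Epha5 is at 88.5 to 313 CPM in Early Spinal Cord and at 7.99 to 30.1 CPM in Late Spinal Cord.

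Spinal cord types and Mature Somites of the same gastruloids were set apart by Epha5 and Efnb2 in opposite directions. No other neural type was paired with Mature Somites. In Late Neurectoderm on day 4.5 of the second experiment (n = 3) Efnb2 was at 56.5 ± 1.9 CPM and Epha5 at 14.2 ± 22.3 CPM. Mature Somites of that group (n = 7) were at 65.1 ± 9.7 and 2.20 ± 1.17 CPM, so the mean ± SD of Efnb2 overlapped. Early Spinal Cord minus Mature Somites was 4.01 ± 0.47 for Epha5 in the first experiment (20 of 20 gastruloids). It was 4.41 ± 0.50 and 4.60 ± 0.53 on days 4.5 and 5 of the third. Efnb2 differed by -3.09, -3.04 and -2.83 and Epha7 by -1.70, -1.27 and -1.86 in the same groups, lower in every gastruloid. There 5.25%, 6.69% and 6.57% of genes met the rule. With 20 in place of 5 added to the CPM, Epha7 met it in none of these groups. Late Spinal Cord minus Mature Somites was 1.67 ± 0.78 and 1.60 ± 0.54 for Epha5, and -2.54 and -2.32 for Efnb2, on day 5 of the first and of the third experiment, where 4.39% and 6.36% of genes met it. Neither of these Epha5 differences met it with 20 in place of 5 added to the CPM, whereas those of Efnb2 did. Between NMPs and Late Posterior PSM Efnb2 differed by -1.35 ± 0.59 on day 5 of the third experiment and was lower in NMPs in all 16 gastruloids. It missed the rule in the other 3 groups, at -1.01 in the first experiment (lower in 20 of 21) and at -0.16 and -0.64 on days 4 and 4.5 of the third. The day 5 difference of Efnb2 missed it too with 20 in place of 5 added to the CPM. NMPs were above Late Posterior PSM in Epha5 by 2.70 ± 0.77, 2.28 ± 0.61, 2.77 ± 0.53 and 3.08 ± 0.47 (first experiment, then days 4, 4.5 and 5 of the third), with 2.01%, 3.52%, 3.22% and 2.81% of genes counted.

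Epha1 (ENSMUSG00000029859, chromosome 6, 42358487 to 42373268, minus strand), an epithelial EphA receptor, was high in primitive streak, early mesoderm and posterior progenitors. It was at 44.4, 56.1 and 64.6 CPM in Primitive Streak on day 3 (24 gastruloids). On the same day it averaged 45.5 ± 13.0 CPM in Early Nascent Mesoderm (n = 16) and 39.5 ± 11.7 CPM in Early Posterior PSM (n = 7), and neighbours in this order overlapped in their mean ± SD. It averaged 40.0 ± 7.2 CPM in Caudal Epiblast on day 3.5 (n = 14), and 38.8 ± 10.7 and 19.2 ± 7.5 CPM in NMPs on days 4 (n = 10) and 5 (n = 16). In Mature Somites its mean was at most 0.778 CPM on any day of the third experiment. NMPs were above Early Spinal Cord by 1.35 ± 0.30 (19 of 19 gastruloids, first experiment), 1.34 ± 0.27 and 1.38 ± 0.47 (days 4.5 and 5 of the third). The shares of genes counted there were 0.751%, 1.42% and 1.21%. Against Late Posterior PSM the same rule was met on day 4 (1.29) and day 5 (1.2) of the third experiment, but not on day 4.5 (0.91) or in the first experiment (1.11, higher in 19 of 21).

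Efna1 (ENSMUSG00000027954, chromosome 3, 89271733 to 89281142, minus strand) was a ligand of the same posterior cells at low levels. On day 5 it was at 5.91, 12.0 and 25.3 CPM in Late Posterior PSM and averaged 0.460 ± 0.314 CPM in Late Spinal Cord (n = 8). In NMPs it was at 0, 13.0 and 19.9 CPM on day 4.5 (11 gastruloids) and 4.13, 7.28 and 14.6 CPM on day 5 (16). It fell by 0.68 on the log2 scale (SE 0.21, adjusted p = 0.0337) and was the 1 member called of 6 tested, where 6.81% of genes were called. That call was lost in 5 of its 7 alternatives, with adjusted p of 0.0235 to 0.25 over the 7. Without lane A it was 0.145 and without lane C 0.25.

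Ephb2 (ENSMUSG00000028664, chromosome 4, 136647539 to 136835988, minus strand) was the EphB receptor of the 10, and few of its type differences met the rule. It averaged 31.0 ± 10.5 CPM in NMPs on day 4, 21.7 ± 3.2 CPM in NMPs on day 5 and 10.7 ± 2.5 CPM in Late Posterior PSM on day 5. In Mature Somites of day 5 it averaged 8.77 ± 1.82 CPM. Its one counted type difference was NMPs above Late Posterior PSM on day 4, by 1.15. Efnb1 (ENSMUSG00000031217, chromosome X, 99136130 to 99148991, plus strand), the X-linked transmembrane ligand, was at 77.4 ± 18.0 CPM in Early Neurectoderm of day 3.5 (n = 7). In NMPs it differed from Late Posterior PSM by -1.12 on day 4 and -1.05 on day 4.5, which met the rule. Its differences of -1.42 in the first experiment (lower in 19 of 21) and -0.74 on day 5 of the third missed it. Efna5 (ENSMUSG00000048915, chromosome 17, 62604184 to 62881317, minus strand) met the rule in none of the 35 group comparisons. Its day 5 means were 8.76 ± 3.00 CPM in Late Posterior PSM, 18.5 ± 3.3 CPM in Mature Somites and 19.6 ± 4.4 CPM in Late Spinal Cord.

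**Figure D4:**
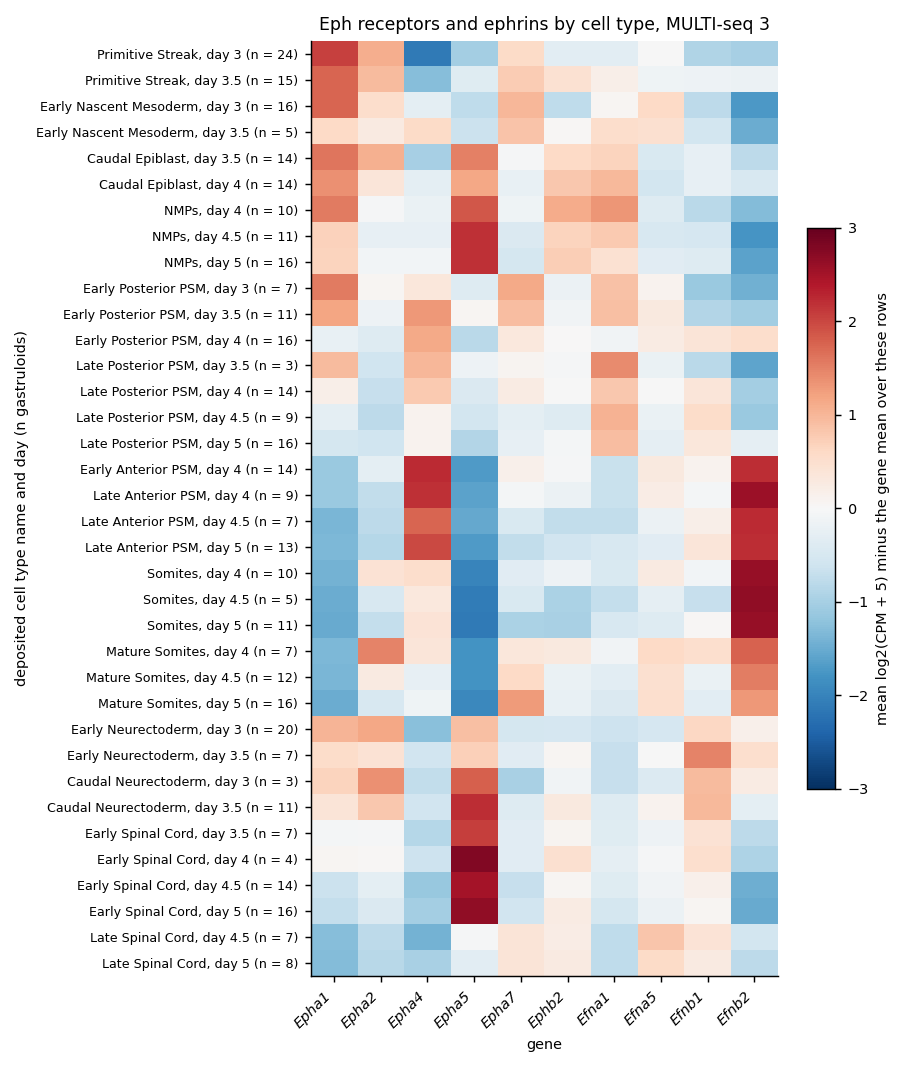
Levels of the 10 members in the cell types and days of the third experiment, as the mean over gastruloids of log2(CPM + 5) minus the gene's own mean over the rows shown. Red is above and blue below that mean. Epha4 is highest in the anterior PSM rows, Efnb2 in the anterior PSM and Somites rows, Epha5 in NMPs, Caudal Neurectoderm and Early Spinal Cord, and Epha1 in the Primitive Streak rows and Early Nascent Mesoderm of day 3.

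Within a cell type, 7 of 10 members changed with time in Early Posterior PSM between days 3.5 and 4, measured in 11 and 16 gastruloids of the same 4 lanes. All 10 members were tested, with 2 called higher and 5 lower on day 4 at an adjusted p under 0.05. Among the 9971 genes tested 37.1% were called, 18.4% higher and 18.8% lower, so calls were common in this contrast. Both transmembrane ligands rose. Efnb2 went from 7.28, 13.0 and 22.6 CPM to 32.8, 45.9 and 112 CPM, a log2 change of 1.58 (SE 0.14, adjusted p = 1.15e-10). Efnb1 went from 3.55, 10.9 and 18.2 CPM to 21.5, 32.7 and 55.8 CPM, a log2 change of 1.47 (SE 0.12, adjusted p = 4.4e-11). For neither ligand did the day 3.5 and day 4 gastruloids overlap, but the share of all genes without overlap was not counted.

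The 5 members that fell were Epha1, Efna1, Epha5, Epha7 and Epha4. Epha1 went from 13.6, 28.9 and 42.4 CPM to 3.76, 7.09 and 17.3 CPM and fell by 1.92 on the log2 scale (SE 0.17, adjusted p = 8.49e-11). Efna1 went from 5.22, 11.2 and 21.8 CPM to 1.85, 3.58 and 7.98 CPM and fell by 1.86 (SE 0.22, adjusted p = 3.07e-08). Epha5 fell by 1.41 (SE 0.14, adjusted p = 8.54e-10), from a median of 18.3 to 9.20 CPM, and Epha7 fell by 0.78 (SE 0.16, adjusted p = 0.000199), from 18.2 to 11.2 CPM. Each of these 4 genes overlapped between the days, with 16, 16, 15 and 16 of 16 day 4 gastruloids below the day 3.5 median. Epha4 fell by 0.23 (SE 0.05, adjusted p = 0.000114), from 130, 139 and 152 CPM to 93.4, 128 and 138 CPM. Epha2 (-0.39, adjusted p = 0.224), Ephb2 (0.16, adjusted p = 0.379) and Efna5 (-0.10, adjusted p = 0.467) were not called.

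Markers of neighbouring cell types moved in the same samples. In Early Posterior PSM the summed anterior PSM markers ranged from 167 to 291 CPM on day 3.5 and from 317 to 438 CPM on day 4, and 3 and then 5 of the 5 averaged at least 5 CPM. Somite markers (8 genes) went from 225 to 881 CPM up to 814 to 1433 CPM. NMP markers (4 genes, of which T was also a posterior PSM marker) were at 166 to 732 CPM on day 3.5 and 72.3 to 223 CPM on day 4. Posterior PSM markers were at 831 to 1374 CPM and 688 to 1197 CPM. Endothelial markers reached at most 10.5 CPM on day 3.5 and reached 216 CPM in 1 gastruloid of day 4. The part of these shifts in the changes of the members was not tested.

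**Figure D5:**
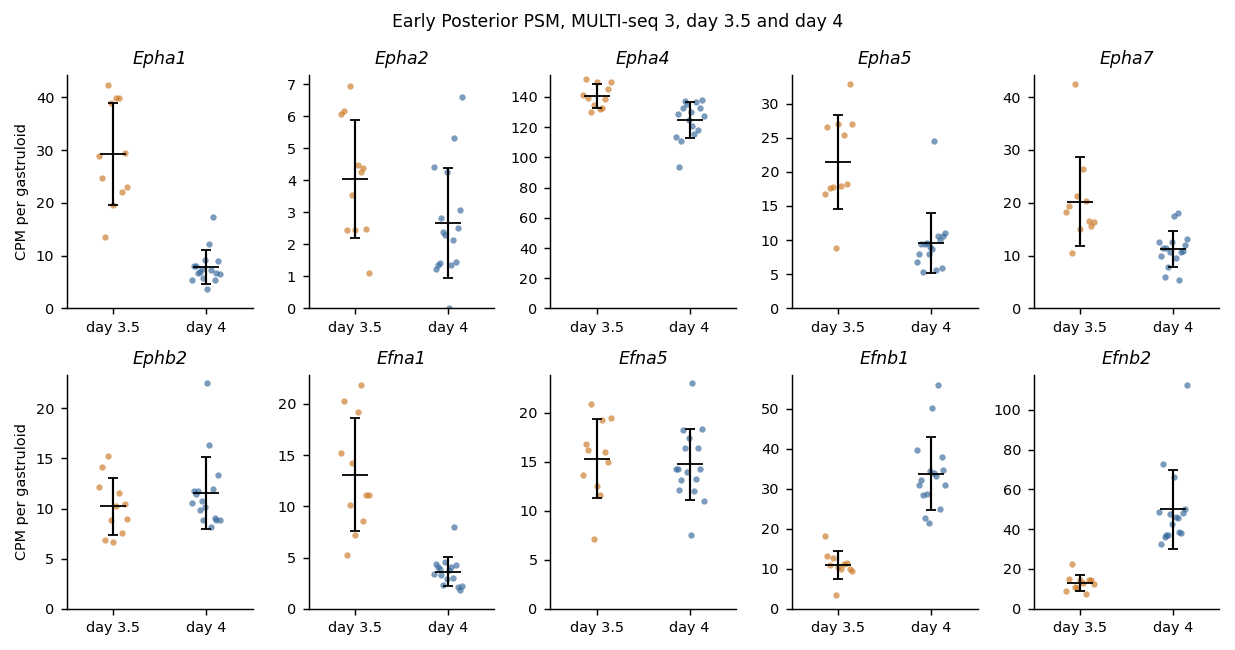
Levels of the 10 members in Early Posterior PSM on days 3.5 and 4 of the third experiment (CPM, linear axes from 0). Each point is 1 gastruloid (11 and 16) and bars give the mean ± SD. The day 4 points of Efnb1 and Efnb2 lie above all day 3.5 points, and those of Epha1 and Efna1 lie below the day 3.5 medians.

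Between days 4.5 and 5 a type had 0 to 2 members called, of 3 to 8 tested, where 2.39% to 14.5% of all genes were called. In Late Posterior PSM Efnb2 went from 5.96, 11.4 and 19.2 CPM (9 gastruloids) to 13.3, 26.0 and 41.5 CPM (16) and rose by 0.91 (SE 0.15, adjusted p = 4.17e-05). It was the 1 member called of 8 tested, where 6.35% of genes were called, and all 16 day 5 gastruloids were above the earlier median. Its summed somite markers stood at 204 to 370 CPM on day 4.5 and 108 to 388 CPM on day 5. In Somites Efnb1 went from 8.94, 11.7 and 22.8 CPM (5) to 13.1, 24.3 and 35.9 CPM (11) and rose by 0.92 (SE 0.24, adjusted p = 0.0316). It was the 1 member called of 3 tested, with 2.39% of genes called, and its adjusted p was 0.013 to 0.0445 over 3 alternatives. Leaving out a lane left fewer than 3 gastruloids on a day and was not fitted. NMP markers moved in the same samples, from 5.84 to 13.0 CPM in sum on day 4.5 (0 of 4 averaging at least 5 CPM) to 17.9 to 59.6 CPM on day 5 (2 of 4), and their part in the result was not tested. In Late Spinal Cord Epha4 went from 10.9, 16.5 and 24.4 CPM (7) to 15.3, 24.8 and 30.1 CPM (8) and rose by 0.52 (SE 0.12, adjusted p = 0.00942). It was the 1 member called of 7 tested, with 7.79% of genes called. Without lane C its change was 0.42 with an adjusted p of 0.0573, and the adjusted p ran from 0.00195 to 0.0573 over its 7 alternatives. In Late Anterior PSM none of 3 members tested was called by edgeR or by DESeq2, where 2.44% of genes were called by edgeR, and 1 of them (Epha4, 0.21) had an unadjusted p under 0.05. In Early Spinal Cord none of 6 was called by either tool, where 11.9% of genes were called by edgeR, and 1 (Ephb2, 0.20) had an unadjusted p under 0.05.

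Sums over all cells of a gastruloid mix these levels with the make-up of the gastruloid, and there fewer cells of a type cannot be told apart from less RNA per cell. Between days 3.5 and 4 (16 and 16 gastruloids) 7 of 10 members were called, 4 higher and 3 lower, where 60.4% of all genes were called (31.1% higher and 29.2% lower). Efnb2 went from 12.6, 21.8 and 53.5 CPM to 35.2, 61.5 and 111 CPM (log2 change 1.42, adjusted p = 1.07e-07). Epha4 went from 27.6, 45.9 and 109 CPM to 40.7, 108 and 145 CPM (0.76, adjusted p = 0.00257), although it was lower within Early Posterior PSM. Efna5 (0.40) and Ephb2 (0.29) were the other 2 that rose. Epha1 (-1.60), Epha5 (-1.48) and Epha2 (-0.55) were lower. Mean levels of Epha1 over days 3, 3.5, 4, 4.5 and 5 were 45.2, 25.1, 8.55, 4.56 and 3.60 CPM. Day 3, days 3.5 and 4, and days 4.5 and 5 were run in separate lanes, so day and pool are mixed across these means.

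From day 4.5 to day 5 Epha2 alone was called in whole gastruloids, with a log2 change of -0.81 (SE 0.26, adjusted p = 0.0348) from 1.18, 3.62 and 8.92 CPM to 0.889, 2.19 and 4.59 CPM. It was 1 of 10 members tested, where 13.5% of genes were called. The call was lost without lane A (adjusted p = 0.0697) and without lane C (0.148), within a range of 0.00958 to 0.148 over 7 alternatives. In the second experiment, day 4.5 against day 4, Epha1 went from 5.27, 11.3 and 22.0 CPM (11 gastruloids) to 1.94, 7.13 and 9.30 CPM (12), a log2 change of -1.02 (SE 0.24, adjusted p = 0.0102). It was 1 of 10 members, where 7.36% of genes were called. Without lane 3 its adjusted p was 0.0554, within a range of 0.000802 to 0.101 over 6 alternatives.

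Of the 12 other Eph and ephrin genes, Ephb1, Ephb3 and Efnb3 showed counted differences along the somite types. Ephb1, an EphB receptor, differed between Mature Somites and Somites by -1.95 in the first experiment, and by -1.10, -1.90 and -2.10 on days 4, 4.5 and 5 of the third, and was lower in Mature Somites in every gastruloid, where 3.27%, 1.6%, 3.67% and 3.85% of all genes were counted. Against Late Anterior PSM Ephb1 differed in Mature Somites by -1.94, -1.30, -1.63 and -2.01 and Ephb3, a second EphB receptor, by 1.14, 1.27, 1.11 and 1.29 in the same 4 groups, where 3.52%, 3.71%, 4.45% and 4.27% of genes were counted. The other counted differences among the somite types were all on day 4.5: Ephb3 above Somites in Mature Somites (1.07), and the ligand gene Efnb3 above Late Anterior PSM in Somites (1.10) and in Mature Somites (1.01). With time in Early Posterior PSM 6 of the 12 passed the filter, of which 4 rose and 1 fell, against 37.1% of all genes called, with Ephb1 at 0.76 and Efnb3 at 0.47. In whole gastruloids of days 3.5 and 4, 8 passed and 5 rose, with 60.4% of all genes called and 31.1% called higher. Ephb3 (1.22), Efnb3 (0.87) and Ephb1 (0.86) had the largest changes of the 5. In Late Spinal Cord from day 4.5 to day 5 Efna3, a lipid-anchored ligand, rose by 1.01, the 1 called of 6, where 7.79% of genes were called. In Early Spinal Cord between the same days Efna3 (0.65) and Efna2 (0.24) rose, 2 of 5 tested, where 11.9% of genes were called.

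The list of signalling partners (Src-family kinases, adaptors, PDZ proteins and others) held 31 symbols, of which 30 were measured. In Early Posterior PSM 27 were tested, and 13 rose and 1 fell on day 4, where 18.4% of all genes were called higher and 18.8% lower. Rgs3, a regulator that binds B-class ephrins, rose by 0.95, the kinase Fyn by 0.73 and the Rac inhibitor Chn2 by 0.56. The median log2 change was 0.18 over the 27 partners, -0.31 over the 10 members and 0.00435 over all genes tested. In Mature Somites from day 4.5 to day 5, 4 of 27 rose and 2 fell, where 14.5% of all genes were called, with Chn2 at -0.86, Pick1 at 0.45 and Rgs3 at 0.39. Between Late Anterior and Late Posterior PSM 26 or 27 partners reached 5 CPM and none met the size rule in any of the 4 groups, where 2.06% to 2.59% of all genes did, so a count of 0 is near that share.

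Across 70 profiles (a cell type on a day of an experiment with at least 3 gastruloids) the genes with the most similar pattern were ranked among 8340 genes by Pearson's r of mean log2(CPM + 5). The profiles share lanes, gastruloids and lineages, so r is a description. Epha1 was closest to T (0.937), Evx1os (0.92) and Evx1 (0.908), and Epha4 to Pcdh19 (0.86), Adgrl2 (0.852) and Smarcd3 (0.848). Efnb2 was closest to Foxp1 (0.912), Add3 (0.905) and Notch2 (0.889). Epha5 was closest to Gtf3a (0.921), Lhpp (0.916) and Nkx1-2 (0.916), Efna1 to Fgf3 (0.812), Fgf4 (0.79) and Ets2 (0.784). Ephb2 was closest to Ago1 (0.838), Efna5 to Plat (0.814), Epha2 to Stim1 (0.703) and Efnb1 to Nectin3 (0.68). For Epha7 the first of all 8340 genes was another member, the ligand gene Efna5 (0.719). Epha4 and Efnb2 were correlated at 0.442 and Epha5 and Efnb2 at -0.668.

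The lanes with no gastruloid assignment give 1 value per cell type, with exact Poisson 95% intervals that cover counting error only. In the 2 lanes of pool C of the second experiment and the 10X lane of day 4, Epha4 was at 279 CPM (246 to 316), 285 (250 to 323) and 340 (297 to 388) in Late Anterior PSM. In Late Posterior PSM of the same lanes it was at 109, 101 and 111 CPM. Efnb2 was at 155 CPM (130 to 183), 169 and 143 in Late Anterior PSM and at 11.3 CPM (8.36 to 14.9), 11.6 and 5.13 in Late Posterior PSM. In Somites it was at 241, 192 and 166 CPM. In the 10X lane of day 3 Epha1 was at 106 CPM (102 to 110) in Primitive Streak and Epha4 at 125 CPM (119 to 132) in Early Posterior PSM. Tagged gastruloids of day 3 were lower in these types, at 55.4 ± 4.5 CPM (SD, n = 24) for Epha1 and 72.7 ± 27.0 CPM (n = 7) for Epha4. The reason was not tested. The lanes with no gastruloid assignment entered none of the comparisons above, and they have no replicate gastruloids.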

How the data were processed

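The deposited files held whole-number UMI counts per gene and cell for 18 lanes, made by the authors with Cell Ranger 6.0.0 on mm10 and annotated with Seurat, per the submitters' processing notes. Cells, gastruloid assignments and cell type names were taken from the authors' deposited annotation. Barcodes assigned to no gastruloid or to several were left out, and no doublet caller was run. Counts were summed per gastruloid and type (at least 15 cells, and 30 for whole gastruloids). Gene positions are from the mm10 annotation (GENCODE). Days were compared with edgeR 4.0.16 (TMM, filterByExpr, quasi-likelihood test, adjusted p under 0.05 over all genes tested) where each day had at least 5 gastruloids. DESeq2 1.42.0, library totals, no filter, a higher minimum of cells and leaving out each lane were alternatives. The code was tested on simulated data. All 10 members are described whatever their values. Of the other lists at most 3 called genes per comparison, those with the largest change, are named. The members and lists were chosen with earlier results of these data known.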

Additional observations from a re-analysis of the deposited data

Results flagged for a closer look

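In 48 groups of 4 to 10 gastruloids the highest or lowest value was compared with its neighbour, and 4 groups had a value set apart, where chance alone sets apart about 1 in 20. For Efna1, Late Anterior minus Late Posterior PSM on day 4 of the third experiment, 1 of 9 gastruloids stood at -0.000527 on the log2 scale against a mean of -1.32. For Epha4, Somites minus Late Anterior PSM on day 4.5, 1 of 5 stood at -0.395 against a mean of -1.47. For Epha4, Mature Somites minus Late Anterior PSM on day 4, 1 of 7 stood at -2.47 against a mean of -1.89. For Efnb1, NMPs minus Late Posterior PSM on day 4, 1 of 10 stood at -2.06 against a mean of -1.12.

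Efnb1 differed in sign between groups for Mature Somites minus Late Anterior PSM. In the third experiment the mean difference was 0.73 on day 4, with Mature Somites higher in 7 of 7 gastruloids. It was -0.53 on day 4.5, lower in 6 of 7, and -0.71 on day 5, lower in 13 of 13. The first experiment gave -0.72 on day 5, lower in 14 of 16. Only day 4 was positive. It was run in other lanes than the other groups, so day and pool cannot be told apart. The difference between the days was not tested.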

How the results depend on the processing

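No direction was reversed in the settings run. Over the 8 comparisons of days within a cell type there were 13 calls of a member, counting a member once per comparison, and 11 to 13 under DESeq2, library totals, no filter and the higher minimum of cells. Over the 3 comparisons of whole gastruloids there were 9 calls, and 8 to 10 under the same settings. In the main fits the share of all genes called was 2.39% to 37.1% within cell types and 7.36% to 60.4% in whole gastruloids. The higher minimum of cells in Somites and Late Anterior PSM, and leaving out a lane in Somites, left fewer than 3 gastruloids on a day and were not fitted, so the Efnb1 call in Somites is missing from the 11 and was not checked for single lanes. Without lane A or lane C Efna1 was also called in whole gastruloids of day 4 against day 3.5 (adjusted p = 0.0455 and 0.0472, against 0.0598 with all lanes and 0.0428 to 0.0968 over the alternatives), and without lane A Efnb1 in those of day 5 against day 4.5 (0.0279, against 0.0859, range 0.0279 to 0.273). The 1 call in whole gastruloids of day 5 against day 4.5 became 2 with DESeq2 (Epha7 at 0.63) and 0 without the filter on low counts. In NMPs the 1 call became 0 with library totals, 0 without the filter and 0 with at least 30 cells. In whole gastruloids of the second experiment 1 became 0 with at least 100 cells. Leaving out a lane gave 0 to 1 calls in whole gastruloids of day 5 against day 4.5, 1 to 2 in Mature Somites, 0 to 1 in Late Spinal Cord, 0 to 1 in NMPs and 0 to 1 in the second experiment. In each case the cause was not tested, except that Epha2 dropped under the filter in Mature Somites. Of 350 differences between types 77 met the size rule, 98 with log2(CPM + 1) and 44 with log2(CPM + 20), since a larger pseudocount shrinks low genes. Under the main rule 0.437% to 6.69% of all genes with a mean of at least 5 CPM were counted per group. The 350 include members under that mean, which could not be counted. With TMM-scaled library sizes 1 of the 5 differences of Efna1 was lost (Late Anterior minus Late Posterior PSM, day 4), and with at least 30 cells 1 of 16 of Epha5, and no other of those that could be run. Leaving out a lane gave 76 to 83.

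Library totals in place of TMM moved the share of calls that were higher from 49.4% to 69.3% in Early Posterior PSM, from 47.2% to 58.3% in whole gastruloids of day 5 against day 4.5 and from 51.7% to 69.6% in Late Posterior PSM. The share moved from 50.1% to 34.1% in Late Spinal Cord, from 44.4% to 71.2% in NMPs and from 41.2% to 57.3% in the second experiment. No paired analysis was possible for the comparisons between days, because gastruloids carry no number shared across days. Lane letters and numbers mark lanes of the same pool, each holding cells of many gastruloids. Members under about 5 CPM rest on few UMIs in the smaller sums, and several were too low to be tested in Late Anterior PSM and Somites. Types and days share cells of the same lanes.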

Other observations

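Outside the PSM, somite and neural types, several members were well detected in other cell types. Efna5 in Head Mesoderm was at 93.6 ± 9.6 CPM (SD, n = 4) on day 5 of the first experiment, and at 27.6 ± 5.0 CPM (n = 7) on day 4 and 50.8 ± 12.5 CPM (n = 7) on day 5 of the third. Efnb1 in Head Mesoderm was at 63.2 ± 11.8, 48.2 ± 7.6 and 57.1 ± 9.1 CPM in the same 3 groups. Ephb2 was at 47.8 ± 4.3 CPM (n = 3) in Mature Endoderm of the first experiment and at 35.2 ± 4.5 CPM (n = 14), 41.0 ± 5.4 CPM (n = 4) and 33.6 ± 7.0 CPM (n = 9) on days 4, 4.5 and 5 of the third. Epha7 had its highest day 4 mean in Mature Endoderm, at 47.6 ± 15.0 CPM (n = 14) in the third experiment and 45.1 ± 13.8 CPM (n = 3) in the second. On days 4.5 and 5 of the third it was at 15.7 ± 8.9 CPM (n = 4) and 13.0 ± 5.95 CPM (n = 9) there. Epha1 in Mature Endoderm was at 13.4 ± 2.8, 13.7 ± 3.5 and 11.4 ± 2.7 CPM on days 4, 4.5 and 5 of the third. Efna1 was at 18.3 ± 10.2 CPM (n = 3) in Endothelium on day 5. These are levels with no test.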
